A study of Mus musculus with 5 samples.

Results

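The 10 genes followed here carry glucose through glycolysis: Slc2a1, Hk2, Pfkl, Pfkp, Aldoa, Tpi1, Pgk1, Eno1, Ldha and Slc16a3. They were taken by name, with every probe set annotated to that single gene symbol, out of 18193 genes on the array. Of the 10, 9 had such probe sets, 23 in all, and all 9 passed the intensity filter that left 11075 genes for testing. Eno1, which encodes the enolase found in most tissues, had no probe set under its symbol alone in the annotation used and was not analysed here.

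The cells were primary chondrocytes, the cells of cartilage, freed with enzymes from the ribs of embryos of FVB mice, taken at gestational day 18.5, and grown in gelatin-coated dishes. The medium was high in glucose and held serum, ascorbic acid and beta-glycerophosphate in every dish, and it was renewed every other day. There were 5 arrays, 1 each for days 2, 6, 9, 12 and 15 of culture. Time in culture was the only difference between groups that the labels give. Whether the cultures shared an isolate, and the time between the last change of medium and harvest, are not in the labels. With 1 array a day, neither can be told apart from the day itself.

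Glycolysis splits glucose into pyruvate in the cytosol and yields ATP without oxygen. Glucose enters through carriers such as GLUT1, hexokinase traps it by phosphorylation, phosphofructokinase commits it to the pathway, and aldolase and triose phosphate isomerase split and interconvert the sugar phosphates. Phosphoglycerate kinase, phosphoglycerate mutase, enolase and pyruvate kinase complete the path to pyruvate. Lactate dehydrogenase then makes lactate, which leaves the cell through monocarboxylate transporters. Cartilage has no blood vessels and chondrocytes live on glycolysis to a large extent. Many of these genes are known targets of the hypoxia-inducible factors, which bind DNA at the core letters ACGTG or GCGTG.

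The promoters were searched for those letters because all 9 measured genes were lowest on day 9 and 8 of them were highest on day 15. The windows were the 250 bases before each annotated transcript start, from RefSeq for build GRCm38.p6, and all 10 genes matched. The motifs ACGTG and GCGTG were searched on both strands. Either one was present in at least 1 window of 9 of 10 genes, against 41.5% of 27025 genes with windows. Tpi1 was the gene without a match. Counted by window, 13 of the 15 windows of these genes had a match, against 38.6% of 32851 windows. Some windows of Aldoa and of Eno1 overlap, so the same match can be counted in more than 1 window. The share of G and C in the 15 windows ran from 50.4% to 73.6%. The background was matched neither for that share nor for the number of windows per gene. ACGTG alone was present in 6 of 10 genes, against 18.5% of all genes, and GCGTG alone in 5 of 10, against 30.9%. The palindrome CACGTG, which contains ACGTG on both strands, was in the promoter of Ldha alone among the 10 genes and in 6.86% of all genes. A match is a description of the letters and not a bound site. The 4 promoters below belong to the carrier that brings glucose in, 1 enzyme of the lower pathway, the enzyme that makes lactate and the carrier that lets lactate out. Capitals mark ACGTG or GCGTG read on either strand, and each sequence runs 5′ to 3′ along its gene.
Slc2a1, chr4:119108495-119108744, plus strand: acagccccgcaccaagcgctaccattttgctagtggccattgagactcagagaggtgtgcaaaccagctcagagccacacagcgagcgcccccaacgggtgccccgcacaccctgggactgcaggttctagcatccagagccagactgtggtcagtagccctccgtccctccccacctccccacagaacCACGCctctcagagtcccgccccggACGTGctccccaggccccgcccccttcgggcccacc
Pgk1, chrX:106186850-106187099, plus strand: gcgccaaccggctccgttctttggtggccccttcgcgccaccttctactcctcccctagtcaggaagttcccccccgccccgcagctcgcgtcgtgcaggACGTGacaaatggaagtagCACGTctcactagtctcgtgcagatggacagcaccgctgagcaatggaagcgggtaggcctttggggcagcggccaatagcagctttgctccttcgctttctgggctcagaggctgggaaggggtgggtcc
Ldha, chr7:46845554-46845803, plus strand: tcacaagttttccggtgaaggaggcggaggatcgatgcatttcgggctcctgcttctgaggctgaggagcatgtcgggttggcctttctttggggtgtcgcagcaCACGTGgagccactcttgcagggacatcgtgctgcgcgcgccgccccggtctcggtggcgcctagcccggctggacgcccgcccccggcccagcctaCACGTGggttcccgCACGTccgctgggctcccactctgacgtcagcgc
Slc16a3, chr11:120948817-120949066, plus strand: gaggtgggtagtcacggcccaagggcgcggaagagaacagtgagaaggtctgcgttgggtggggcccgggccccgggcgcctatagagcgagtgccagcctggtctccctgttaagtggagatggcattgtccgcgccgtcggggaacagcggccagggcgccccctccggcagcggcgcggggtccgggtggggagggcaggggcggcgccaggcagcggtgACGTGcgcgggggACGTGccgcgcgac

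In Slc2a1 the marked stretches began 61 and 36 bases before the start, and in Pgk1 150 and 131 bases before it. In this window of Ldha, which is 1 of 2 for that gene, 3 stretches began 145, 48 and 34 bases before the start. The first and second of these are the palindrome. In Slc16a3 both stretches lay close to the start, at 27 and 14 bases before it.

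The values are MAS5 signal intensities on a linear scale, with each array scaled to a trimmed mean of 500.0. A probe set has its own brightness, so levels are compared between days and never between genes. Any intensity under 73.1, which is the 40th percentile over the arrays, was raised to that floor before ratios were taken. A fold is therefore a ratio of floored intensities, and each gene is represented by its brightest probe set unless another is named. With 1 array a day there is no replicate error and no test of a difference between 2 days. To gauge how far probe sets of a gene disagree, 3013 genes with 2 probe sets above the filter gave an SD of 0.41 for a log2 difference between days 15 and 12, and 0.59 between days 9 and 2. That spread leaves out variation between dishes and arrays.

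All 9 measured genes had their lowest intensity on day 9, a day that was lowest for 13.0% of all genes tested. From day 9 to day 12 their median log2 difference was 0.30, under the SD of 0.35 between probe sets for that step. For most of the 9, then, the order of days 9 and 12 is not resolved. Of the 9, 8 had their highest intensity on day 15, which was the highest day for 22.4% of all genes, and both applied to 3.27% of all genes. The median of the 9 genes, as a log2 difference from day 2, was -0.37 on day 6, -1.18 on day 9, -0.87 on day 12 and 0.69 on day 15. The same medians over all 11075 genes lay at 0.03, 0.01, -0.00 and 0.00. By these medians the 9 genes were lower than at the start in the middle of the culture and higher than at the start at its end.

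**Figure D1:**
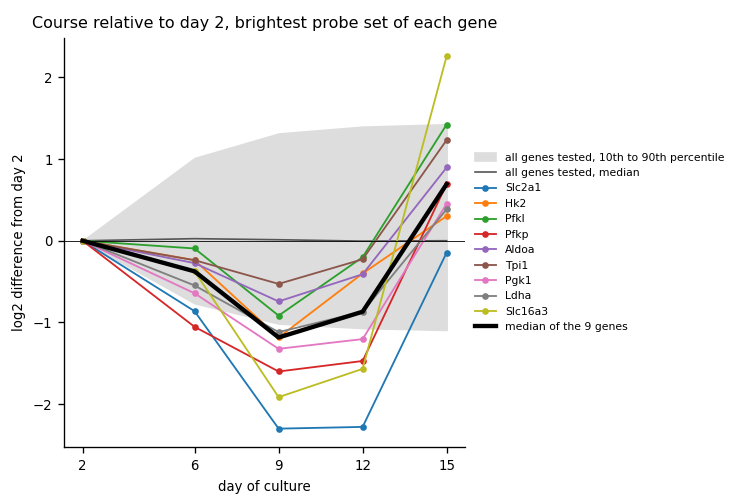
Log2 difference from day 2 (vertical axis) by day of culture (horizontal axis) for the brightest probe set of each of the 9 genes, with their median as a thick black line and the 10th to 90th percentile of all 11075 genes in grey. Every gene is lowest on day 9, where the median is -1.18, and the median on day 15 is 0.69.

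Slc2a1 encodes GLUT1, the carrier that takes up glucose in most cells. Its intensity was 8953 on day 2, 4923 on day 6, 1816 on day 9, 1843 on day 12 and 8098 on day 15. Days 2 and 15 were high, and days 9 and 12 were low and nearly level. The day 9 value was 4.93-fold below day 2, the day 15 value was 4.39-fold above day 12, and day 15 ended 1.11-fold below day 2. Slc2a1 was the gene of the 9 that was not highest on day 15 by its brightest probe set. Its other probe sets gave 6.68-fold and 3.55-fold lower on day 9 than on day 2, and 4.87-fold and 4.84-fold higher on day 15 than on day 12. The second of them was lowest on day 12, at 542, against 580 on day 9. Against day 2, the other probe sets lay on opposite sides on day 15, 1.27-fold lower and 1.27-fold higher. The log2 difference was -0.14 and turned to 0.03 when arrays were scaled on the Actb control probe sets.

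Hk2 encodes hexokinase 2, which phosphorylates glucose inside the cell and can sit on mitochondria. Its single probe set read 1038, 881, 457, 787 and 1280.2 on days 2, 6, 9, 12 and 15. Day 9 was 2.27-fold below day 2, and day 12 was already 1.72-fold above day 9. Between days 12 and 15 the difference was 1.63-fold, which made Hk2 the gene of the 9 under 2-fold at that step.

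Pfkl and Pfkp encode the liver-type and platelet-type subunits of phosphofructokinase, the main point of control of the pathway. Pfkl read 1754, 1642, 929, 1525 and 4704 in order of day. Its day 15 value stood apart from the other 4, at 3.08-fold over day 12 and 2.68-fold over day 2, while day 9 was 1.89-fold below day 2. Pfkp read 1422, 685, 469, 512 and 2300.5. It was already low on day 6, 3.03-fold below day 2 on day 9, and 4.49-fold higher on day 15 than on day 12. A second probe set of each had the same direction at both steps, with 1.74-fold lower and 2.61-fold higher for Pfkl and 1.87-fold lower and 4.38-fold higher for Pfkp. That second Pfkp probe set was lowest on day 12, at 184, and not on day 9. The third probe set of each was dim, with at most 145 for Pfkl and 122 for Pfkp, and lay below the intensity filter.

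Aldoa encodes aldolase A, which cuts fructose bisphosphate into 2 trioses. It read 17342, 14341, 10361, 13053 and 32305, with days 2 to 12 close together and day 15 above them all. Day 9 was 1.67-fold below day 2 and day 15 was 2.47-fold above day 12. Over its 5 probe sets the day 15 against day 12 fold ran from 1.68 to 3.21, and the mean log2 difference was 1.31 with an SD of 0.35 between probe sets. All 5 carry the array's suffix for probes that can also bind other transcripts, as do 8 of the 23 probe sets of the genes described here.

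Tpi1 encodes triose phosphate isomerase, which feeds both products of aldolase into the lower pathway. It read 12200.3, 10343, 8459, 10424 and 28694. The lower value on day 9 was slight, 1.44-fold under day 2, and day 15 was 2.75-fold above day 12 and 2.35-fold above day 2. Its 3 probe sets agreed closely for day 15 against day 2, with folds from 2.20 to 2.40. Tpi1 is also the gene whose promoter window held neither searched motif.

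Pgk1 encodes phosphoglycerate kinase, the first step of the pathway that returns ATP. Its brightest probe set read 27318, 17489, 10915, 11853 and 37372. Day 9 was 2.50-fold below day 2 and day 15 was 3.15-fold above day 12. The 3 probe sets parted company on the last array: day 15 against day 12 was 3.15-fold, 3.17-fold and 6.96-fold, and day 15 against day 2 ran from 1.19-fold to 3.13-fold. Pgk1 has many processed pseudogenes, as do several genes of this pathway, and probes that bind their transcripts could not be separated here.

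Ldha encodes the lactate dehydrogenase subunit that favours making lactate. Its single probe set read 26526, 18145, 12212, 14524 and 34671. Day 9 was 2.17-fold below day 2, day 15 was 2.39-fold above day 12 and 1.31-fold above day 2. Of the 9 genes Ldha had the course nearest to their median, with a root mean square distance of 0.18 on the log2 scale over days 6, 9, 12 and 15.

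Slc16a3 encodes MCT4, the carrier that exports lactate from strongly glycolytic cells. Its single probe set read 288, 222, 76.4, 97.1 and 1380.0. The values of days 9 and 12 were just above the floor of 73.1, and day 15 was far above all other days. Day 15 was 14.2-fold above day 12 and 4.79-fold above day 2, the widest differences among the 9 genes at both comparisons. Because day 12 lay so near the floor, the ratio to it depends on where the floor is set: the log2 difference between days 15 and 12 was 3.83, and 2.93 with the floor at the 60th percentile, whereas the difference from day 2 was 2.26 with both.

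**Figure D2:**
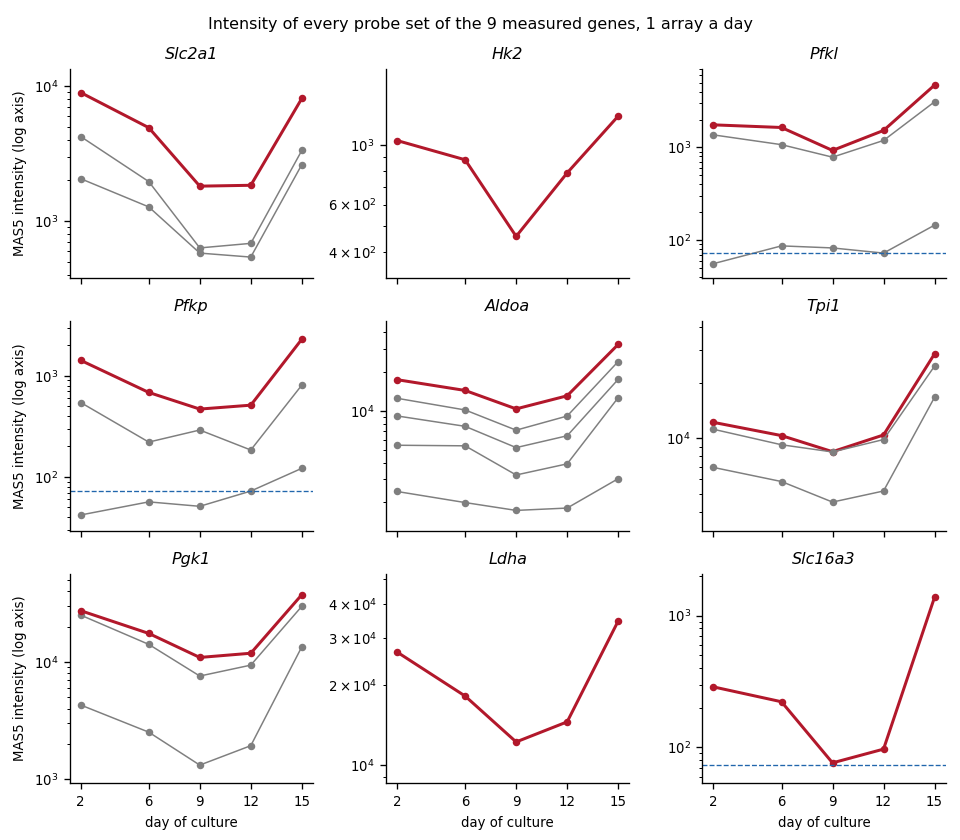
MAS5 intensity (vertical log axes, each panel with its own range) by day of culture for all 23 probe sets of the 9 genes, with the brightest probe set of each gene in red, others in grey and the floor of 73.1 as a dashed blue line where it falls in range. Most lines dip on day 9 or 12 and end on day 15 at or above day 2; 19 of 21 probe sets above the intensity filter are lowest on day 9.

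Day by day, the 9 genes were lower in steps through day 9, and most of the later difference lay between days 12 and 15. On day 6, Pfkp alone was at least 2-fold lower than on day 2, where 5.70% of all genes were, and from day 6 to day 9 Slc2a1 and Slc16a3 were, against 4.06% of all genes. Against day 2, 6 of 9 were at least 2-fold lower on day 9, where 10.3% of all genes were. The 3 that were not were Pfkl, Aldoa and Tpi1, at 1.89-fold, 1.67-fold and 1.44-fold lower. On day 12, 4 of 9 were still 2-fold lower than on day 2, against 11.4% of all genes, and 0 were 2-fold higher, against 16.1%. From day 9 to day 12 all 9 were higher, but by less than 2-fold in each, from a log2 difference of 0.02 for Slc2a1 to 0.78 for Hk2, and 1.72% of all genes were 2-fold higher at that step. From day 12 to day 15, 8 of 9 were at least 2-fold higher, against 4.23% of all genes, with a median log2 difference of 1.62 for the 9 and -0.01 for all genes. None of the 9 was 2-fold lower at that step, where 3.92% of all genes were. Of the 21 probe sets above the filter, 19 reached 2-fold at that step and all 21 were higher on day 15.

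Set against the start of the culture the differences were smaller. Pfkl, Tpi1 and Slc16a3 were at least 2-fold higher on day 15 than on day 2, which is 3 of 9, against 16.2% of all genes, and none was 2-fold lower, against 11.6%. Aldoa joined them, at a log2 difference of 1.04 and 1.07, when arrays were centred on their medians or scaled on Actb. Against day 6, 6 of 9 were at least 2-fold higher on day 15, where 8.42% of all genes were. Against day 9, all 9 were at least 2-fold higher on day 15, where 5.00% of all genes were. Both 2-fold lower on day 9 than on day 2 and 2-fold higher on day 15 than on day 9 were 6 of 9 genes, Slc2a1, Hk2, Pfkp, Pgk1, Ldha and Slc16a3, against 1.52% of all genes. The genes were listed together with earlier results of these arrays known, so these counts describe them and are not independent support. Every comparison with day 15 rests on the same single array.

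**Figure D3:**
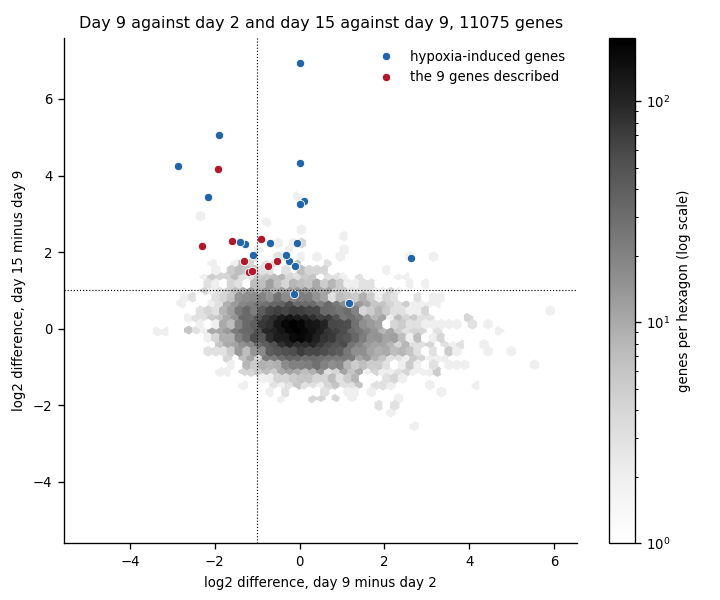
Log2 difference between days 9 and 2 (horizontal axis) and between days 15 and 9 (vertical axis) for 11075 genes, shaded by the number of genes per hexagon on a log scale, with the 9 genes in red and 18 hypoxia-induced genes in blue. Dotted lines mark 2-fold; all 9 red points lie above the horizontal one and 6 lie left of the vertical one.

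The only test that 5 unreplicated arrays allow is a fit over time. A straight line on day was fitted to log2 intensity with limma for all 11075 genes, two-sided and with Benjamini-Hochberg adjustment. No gene of the 9 passed in either direction: the count was 0 for the adjusted and 0 for the unadjusted p under 0.05, against 0.0542% and 14.4% of all genes for a rising line. Adjusted p-values ran from 0.403 for Tpi1 to 0.970 for Pgk1. A line cannot describe a course that is low in the middle, so a curved fit, with the square of day added, was chosen after the data were seen. In it all 9 genes had an upward curve at an unadjusted p under 0.05, against 7.23% of all genes. None passed after limma's adjustment over all genes tested, where 0 of the 11075 did. The lowest adjusted p was 0.123 for Pfkp and the highest 0.238 for Hk2. Without the day 15 array, 0 of the 9 had an upward curve at an unadjusted p under 0.05. The slopes of all 9 were then negative, with 5 at an unadjusted p under 0.05 and a lowest adjusted p of 0.0742. How many of all genes passed the unadjusted threshold in the fits without that array was not computed, so these counts have no background beside them.

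Other enzymes of the same steps were measured too. Gapdh, the enzyme between Tpi1 and Pgk1, was read by control probe sets, which were kept out of the fits. Its 3′ control read 38372, 22970.4, 16508, 17477 and 39646 in order of day, with day 9 lowest and days 2 and 15 level. Pgam1, phosphoglycerate mutase, read 10157, 7352, 4948, 5007 and 15269.8, and was the gene nearest to the median course of the 9 among 11066 others, at a distance of 0.13. Pkm, pyruvate kinase of most tissues, read 20602, 8593, 5023, 4450.0 and 14717, lowest on day 12 and 1.40-fold below its day 2 level on day 15.

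Other isoforms of these steps differed in their course. Aldoc, the aldolase of brain, was under the floor on day 2 and read 303, 343 and 319 on days 6, 9 and 12 before 4248 on day 15, 13.3-fold above day 12. A second Aldoc probe set lay under the floor on days 2, 6, 9 and 12 and read 176 on day 15, at least 2.41-fold above day 12. It gave no difference between days 9 and 2. Eno2, the neuronal enolase, read 172, 174, 254, 186 and 1249.8, 6.71-fold higher on day 15 than on day 12. Pgam2, the muscle mutase, lay under the floor on 4 days and read 359.8 on day 15, at least 4.92-fold higher than on day 12, although its mean was below the filter. Hk1, Pfkm and Eno3 differed by less than 2-fold between days 12 and 15, at 1.97-fold, 1.36-fold and 1.66-fold higher. A second Hk1 probe set was 2.09-fold higher at that step and 2.12-fold lower on day 9 than on day 2. In all, 20 genes were listed for these steps, 16 had probe sets of their own and 8 passed the filter. Of the 8, 4 were at least 2-fold higher on day 15 than on day 12 and 0 lower, against 4.23% and 3.92% of all genes, with a median log2 difference of 1.29. Between days 9 and 2 the same 8 were divided, with 2 at least 2-fold lower, Pgam1 and Pkm, 2 at least 2-fold higher, Aldoc and Ldhb, and a median of -0.03, against 10.3% and 15.1% of all genes.

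Ldhb, the lactate dehydrogenase subunit of oxidative tissues, was lowest on day 2 and higher on days 9 and 12, when Ldha was low. Its brightest probe set read 649, 2052, 3006, 2240.1 and 2052 in order of day, highest on day 9, while its other 3 probe sets were highest on day 12. On day 9 it was 4.63-fold above day 2, and on day 15 it was 1.09-fold below day 12. Those 3 were 3.07-fold to 4.58-fold higher on day 9 than on day 2 and 1.43-fold to 1.59-fold lower on day 15 than on day 12. By limma its curve was downward with an adjusted p of 0.131, and its line had an adjusted p of 0.235.

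**Figure D4:**
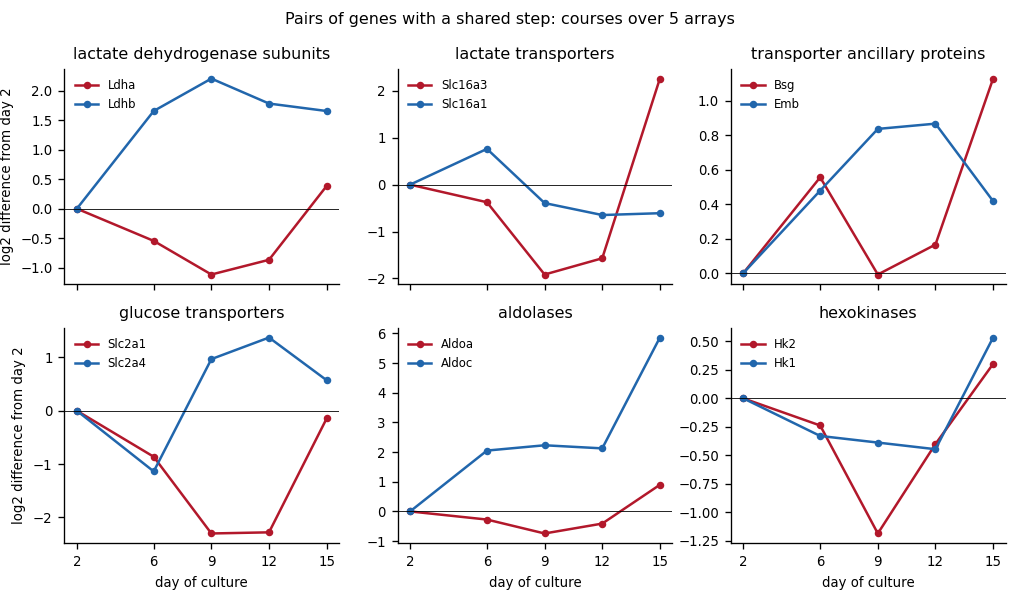
Log2 difference from day 2 (vertical axes, each panel with its own range) by day of culture for 6 pairs of genes with a shared step, by the brightest probe set of each. Ldha is lowest and Ldhb highest on day 9, and between days 12 and 15 Slc16a3 is 14.2-fold higher while Slc16a1 is 1.03-fold higher.

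The other carriers had mixed courses. Slc2a3, which encodes the high-affinity carrier GLUT3, was under the floor on day 2 and read 78.7, 145, 130.0 and 769 on days 6, 9, 12 and 15, 5.92-fold higher at the last step. Its other probe sets were also higher at that step, by 3.62-fold and, as bounds, by at least 2.14-fold and at least 2.29-fold. Slc2a4, the insulin-responsive carrier GLUT4 of fat and muscle, read 161, 27.7, 315, 417 and 239, highest on day 12 and 1.74-fold lower on day 15, with 3.89-fold lower by its second probe set. Slc2a12 was at least 3.40-fold lower on day 15 than on day 12, although its second probe set, below the intensity filter, gave 1.05-fold lower. Slc16a1, which encodes the widely expressed lactate carrier MCT1, read 3317, 5625, 2527, 2117 and 2175, highest on day 6 and level over the last step.

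Bsg and Emb encode basigin and embigin, partner proteins that bring monocarboxylate transporters to the cell surface, and MCT4 is known to pair with basigin. Bsg read 10946, 16090.2, 10884, 12278 and 23933, and was 1.95-fold higher on day 15 than on day 12. Emb read 6489, 9042, 11589, 11836 and 8666, and was 1.37-fold lower at that step. Of 16 other carriers and partners listed, 10 passed the filter, of which 1 was at least 2-fold higher between days 12 and 15, Slc2a3, and 2 at least 2-fold lower, Slc2a12 and Slc16a7, against 4.23% and 3.92% of all genes. The median log2 difference of these 10 was -0.06, beside 1.62 for the 9 genes described.

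Regulators of the pathway were measured as well. Pdk1, a kinase that shuts off pyruvate dehydrogenase, read 440.3, 681, 466, 595 and 2754, with day 15 4.63-fold above day 12. The 3 other probe sets of Pdk1 were 6.84-fold, 2.65-fold and at least 3.32-fold higher at that step. Pfkfb3, which makes the activator of phosphofructokinase, read 153, 265, 317, 561 and 1275, each array higher than the one before and the last 2.27-fold above day 12. A second Pfkfb3 probe set read 68.8, 204, 102, 208 and 375, lower on day 9 than on day 6 and higher by less than 2-fold at the last step. The line of the brightest one had a limma adjusted p of 0.0651. Txnip, a protein that lowers glucose uptake, read 2062, 5085, 2609, 3622 and 6604, lowest on day 2 and highest on day 15, which were both days of high Slc2a1. Of 14 measured regulators, Pdk1 and Pfkfb3 were the 2 at least 2-fold higher between days 12 and 15, against 4.23% of all genes, and 0 were 2-fold lower, against 3.92%. The pyruvate dehydrogenase subunits Pdha1, Pdhb and Dlat stayed within 1.35-fold of day 2 on day 15, at 1.14-fold higher, 1.30-fold lower and 1.34-fold lower.

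Genes of neighbouring pathways were compared at the step from day 12 to day 15, where the shares of all genes past 2-fold were 4.23% upward and 3.92% downward, so that counts near 0 in short lists are near the background. In the citric acid cycle, 14 of 15 listed genes were measured and 0 of them differed 2-fold between days 12 and 15, with a median log2 difference of -0.11. In the pentose phosphate pathway, which branches off after hexokinase, 0 of 7 differed 2-fold at that step, with a median of -0.21. Against day 2, Pgd and Taldo1 of that pathway were 2.51-fold and 2.45-fold lower on day 15, and H6pd, its counterpart in the endoplasmic reticulum, was 2.44-fold higher. Among 4 measured genes of gluconeogenesis, Pck2 was 2.06-fold higher between days 12 and 15 and the others were within 2-fold, although a second Pck2 probe set gave 1.17-fold. No difference between these lists was tested.

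**Figure D5:**
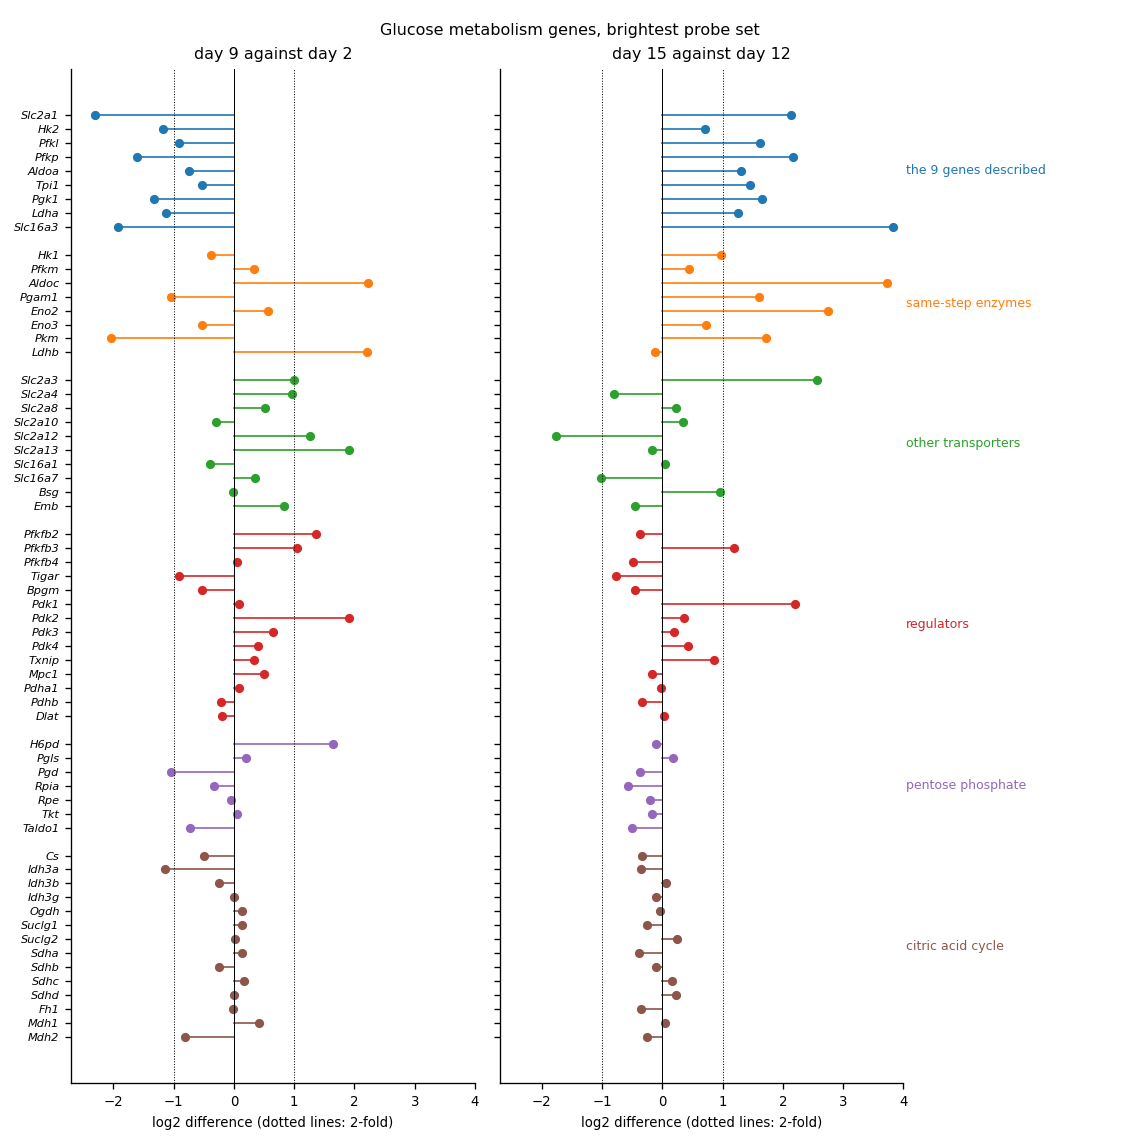
Log2 difference between days 9 and 2 (left) and between days 15 and 12 (right) for the measured genes of 6 lists of glucose metabolism, by the brightest probe set, with dotted lines at 2-fold. On the right 8 of the 9 genes described pass the 2-fold line, Hk2 being the exception, and 0 of 14 citric acid cycle genes do.

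Hypoxia-induced genes outside glycolysis were high on the same last array, with 16 of 18 at least 2-fold higher on day 15 than on day 12, against 4.23% of all genes, and a median log2 difference of 2.06. On day 9 against day 2 they were less alike, with 6 of 18 lower by 2-fold or more, against 10.3% of all genes, 2 higher by as much, against 15.1%, and a median of -0.19. The transcript of the oxygen-sensing factor Hif1a read 6627, 10029, 9412, 9615 and 9509.5, level from day 6 on. Epas1, which encodes the related factor HIF-2 alpha, read 166, 365, 1212, 2382 and 568, highest on day 12 and 4.19-fold lower on day 15. Of 8 oxygen-sensing factors listed, Epas1 was the 1 at least 2-fold lower at that step, and 0 were 2-fold higher. The shares of all genes were 3.92% and 4.23%, and the median log2 difference of the 8 was 0.02.

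The genes nearest to the median course of the 9, by the distance of their log2 differences from day 2 over the 4 later days, were Pgam1, Tmem74b, Coq8b, 2500002B13Rik, Plod1, Rab3ip, Timp1 and Vamp2. Their distances ran from 0.13 to 0.21, against 0.18 for Ldha, 1.02 for Slc2a1 and 0.93 for Slc16a3, whose swings were wider than the median of the 9. By this distance Slc2a1 ranked 5668 and Slc16a3 4562 among all genes tested, so many other genes lay nearer to that median. Plod1, a lysyl hydroxylase that modifies collagen, read 1459, 1006, 616, 735 and 1955. Timp1, an inhibitor of matrix metalloproteinases, read 22227, 19019.5, 9335, 13391 and 28880.1. Tmem74b and 2500002B13Rik lay under the floor on day 9, so their courses are partly set by it.

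The arrays and the cells on them also differed between days. The share of probe sets that reached the floor was 58.8% to 61.9%, and the Actb controls had 3′-to-5′ ratios from 1.17 to 1.27. That ratio for the Gapdh controls was 0.779, 0.707, 0.616, 0.627 and 0.798 in order of day, which moved with the glycolytic genes, and its part in the result was not tested. All 8 chondrocyte markers listed were above the floor on all 5 arrays, with a summed intensity of 144324 on day 2, 38189.5 on day 12 and 46933 on day 15. Acan, the aggrecan gene, read 19492, 11052, 2092, 723 and 2328, and was 3.22-fold higher on day 15 than on day 12. But over the 8 markers that step had a median log2 difference of 0.08. Of them, 2 were at least 2-fold higher and 0 lower, against 4.23% and 3.92% of all genes. Adipocyte markers, of which 6 of 8 had probe sets, summed to 3335 on day 2, 55599 on day 9, 96935 on day 12 and 52727 on day 15. Between days 12 and 15, 3 of the 6 were at least 2-fold lower and 0 higher, against 3.92% and 4.23% of all genes. From day 9 to day 15 the log2 differences of the 6 ran from -0.77 to 1.31, with a median of 0.31. At that comparison 1 was at least 2-fold higher, against 5.00% of all genes. Osteoblast markers, 6 of 7 with probe sets, summed to 883, 54938 and 79289 on days 2, 12 and 15, and 8 fibroblast markers to 37073, 97652 and 111851. In bulk RNA, fewer cells of a type and less RNA per cell cannot be told apart, and the part of these shifts in the glycolytic course was not tested.

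Markers of other cell types that a rib cage could yield were followed by day. Of 8 skeletal muscle markers, a tissue rich in glycolytic enzymes, 3, 5, 3, 5 and 2 lay at or under the floor in order of day, and their sum ran from 1085 to 2149 with 1616 on day 15. Of 5 erythroid markers with probe sets, 3 to 5 were at or under the floor on each day and their sum was at most 329. Of 8 endothelial markers 5 or 6 were at or under the floor, Pecam1 among them on every day, with sums from 403 to 671. Of 8 macrophage markers 2 or 3 were at or under the floor, and their sums were 1596, 1042, 749, 1251 and 1125 in order of day, lowest on day 9 as the glycolytic genes were. Of the 5 that passed the filter, 3 were at least 2-fold lower on day 9 than on day 2, against 10.3% of all genes. These were Csf1r, Adgre1 and Cd14, and the median log2 difference of the 5 was -1.08. From day 12 to day 15, 0 were 2-fold higher and 1 was 2-fold lower, against 4.23% and 3.92% of all genes. The median of the 5 at that step was -0.39. Their part in the result was not tested.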

How the data were processed

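RNA from 5 cultures, 1 per day, was measured on single-colour arrays. The deposited values are linear probe-set intensities. The submitters' processing notes name MAS5, and the equal trimmed means (2% left out at each end) of 500.0 show that the authors' arrays share a common scale. Depth has no counterpart on arrays, so their number limits the precision.

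Of 45101 probe sets, 34945 carried 1 symbol outside the 64 controls, and symbols were updated through RefSeq (GRCm38.p6). The members, gene lists, markers and rule for named genes (members, listed genes and the 8 nearest courses) were chosen with earlier results of these data known. Intensities were floored at the 40th percentile, log2 was taken, the brightest probe set stood for a gene, and genes were kept at a mean intensity of 105.93, the median over non-control probe sets, or more. Straight lines and curves over time were fitted in R 4.3.3 by lmFit and eBayes of limma 3.58.1 (adjusted p threshold 0.05, 3 and 2 residual degrees of freedom) and checked on simulated data. Python 3.11.15, pandas 2.3.3, numpy 2.4.6 and matplotlib 3.10.9 did the rest. Alternatives changed scaling, floor, pseudocount, probe sets, filter, days and arrays. The labels do not say whether the cultures shared an isolate, so p-values measure only the spread of these 5 arrays about a fitted course.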

Additional observations from a re-analysis of the deposited data

How the results depend on the processing

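Over 126 recomputed differences of single genes between days 15 and 2 or 15 and 12, 125 kept their sign, the exception being Slc2a1 as given above. Slc16a3 between days 15 and 12 (log2 2.93 with the floor at the 60th percentile and 3.09 with a pseudocount, against 3.83) and Pfkp (1.68 with the mean over probe sets, against 2.17) moved by more than the probe-set SD. For the 9 genes, the count at least 2-fold higher between days 12 and 15 was 8 and the fitted counts after adjustment were 0 under every alternative run. Over all genes, rising lines that passed adjustment numbered 0 with no filter and without the day 15 or day 2 array. They numbered 734 of 11075 on the log2 of day and 119 of 7806 with the filter at the 70th percentile. Upward curves that passed numbered 0 under most alternatives and at most 49, with that stricter filter. Where no gene passed, the 9 could give no other count. The count of 3 genes at least 2-fold higher on day 15 was 4 with arrays centred on their medians or scaled on Actb, and depended on the day it was set against: it was 6 against day 6, 9 against day 9, with a median log2 difference of 1.78, and 0 with days 12 and 15 averaged against days 2 and 6. The count 2-fold lower on day 9 than on day 2 was 4 to 6, with 4 under scaling on Actb, an alternative chosen after seeing the data, as was the day 9 comparison itself. Centring arrays on their medians and scaling on Actb moved the median of all genes between days 15 and 2 to 0.14 and 0.18. The 9 unadjusted upward curves became 5 with the higher floor, 3 with no filter and 0 on the log2 of day. The unadjusted shares of all genes under these alternatives were not computed. No paired analysis was possible because each day has 1 array.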
